A study of Mus musculus with 6 samples.

Results

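The genes described here encode the proteins of the cardiac extracellular matrix other than collagens, the laminins and nidogens of the basement membrane, the enzymes and inhibitors that remodel the matrix, and the TGF-beta growth factors. They are 37 genes chosen by name, of 20655 named on the array: every probe whose RefSeq accession maps to 1 of the 37 symbols was taken, 49 probes of 39429. Their signal was compared between total RNA of the heart ventricles of female C57BL/6N mice, 21 weeks old, whose sleep had been fragmented for 5 weeks (3 arrays, 1 sample each) and of mice of the same strain, sex and age that were left undisturbed (3 arrays). The question was which of these genes differ in the heart after chronic sleep fragmentation. The labels do not say whether the samples of a group are separate animals, so p-values here measure the spread among the samples hybridised, which could be technical. Levels are log2 signals from which the 75th percentile of the array was subtracted, so 0 is that percentile. Levels of single genes are compared between arrays for 1 probe and never between genes. Marker lists are also summed on the linear scale, where the brightest genes weigh most, and these sums too are compared between arrays only.

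The matrix of the ventricle is laid down mainly by fibroblasts, between and around muscle cells that each sit in a sheath of basement membrane. Laminins form the sheet of that membrane, nidogens and perlecan tie it together, and fibronectin, small proteoglycans and elastic fibres fill the space outside it. TGF-beta is secreted in a latent form, is held in the matrix by latent TGF-beta binding proteins, and after release drives fibroblasts to make matrix proteins and the inhibitors of the metalloproteinases that degrade them.

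No gene of the 37 passed the adjusted threshold. The 3 that stood highest in the sleep fragmented hearts were Timp3, an inhibitor of metalloproteinases that binds to the matrix, Nid2, a nidogen of the basement membrane, and the growth factor gene Tgfb3, at 1.52-, 1.46- and 1.43-fold of control. After the filter on dim probes 35 of the 37 genes (44 of the 49 probes) could be compared, and 0 of them had an adjusted p under 0.05 by limma; the smallest was 0.949. Over all 25219 probes tested, 0 passed (0%). At an unadjusted limma p under 0.05, 2 of the 35 were higher (Timp3 and Nid2) and 0 lower, beside 1.7% higher and 1.02% lower among the 14544 named genes. For 2 of the 35 (Timp3 and Tgfb3) the groups did not overlap, the sleep fragmented arrays being higher, and for 0 they were lower without overlap, beside 3.47% and 3.93% of the named genes. The count of 2 at the unadjusted p was 0 without sleep fragmented replicate 2, 1 when control replicate 2 or 3 was left out, 5 without sleep fragmented replicate 3, 0 with median scaling and 6 with array weights (Timp3, Lamb2, Thbs2, Ccn2, Eln and Mmp14). Over all probes the same count was 685 in the main setting, 6481 with array weights and 1137 with median scaling. It was 1174 without sleep fragmented replicate 2 and 671 without sleep fragmented replicate 3. The count of 2 without overlap was 4 without sleep fragmented replicate 1 or 2 and 9 without sleep fragmented replicate 3 or control replicate 1, where fewer arrays leave less room to overlap, and 0 with median scaling.

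Most of the 35 genes had a small positive difference. The log2 fold change, sleep fragmented over control, was above 0 for 31 of them (59.3% of all named genes were above 0), with a median of 0.20 and a range from -0.22 to 0.60, beside a median of 0.06 over all named genes. Above that median lay 28 of the 35. Scaling each array to its median instead put the median of all named genes at -0.15, that of the 35 genes at -0.0034 and 16 of them above 0, and 28 again lay above the median of all named genes. The gap between the median of the 35 genes and that of all named genes was 0.15 in the main setting, 0.15 with median scaling and 0.20 with quantile normalization. It was 0.03 without sleep fragmented replicate 2, when 25 genes were positive, and 0.04 with array weights, when 19 were. Each single difference was mostly no larger than the spread between arrays: for 12 of the 35 the fold change exceeded the standard deviation within groups. The same held for 3912 of the 14544 named genes. The median of that standard deviation was 0.31 for the 35 genes, against 0.26 for all named genes.

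**Figure D1:**
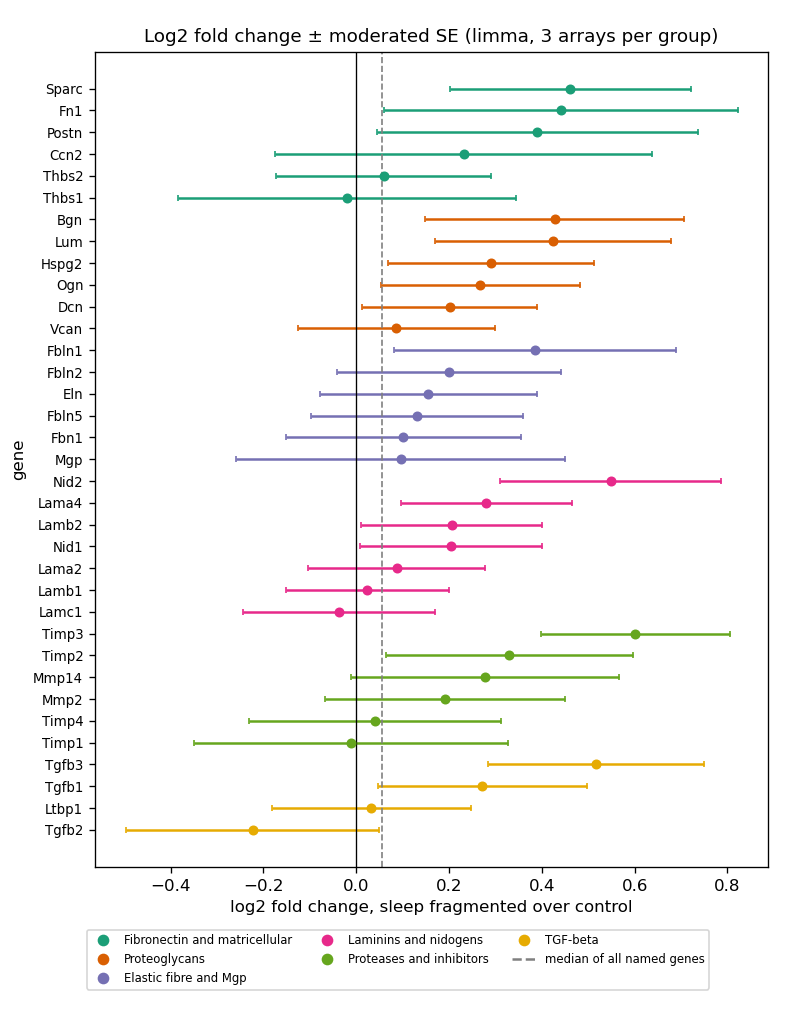
Log2 fold change of the 35 measured genes (x axis, sleep fragmented over control, points) with the moderated standard error (bars), in colours by role and sorted within each role; the dashed line is the median of all named genes. Of the 35 points 31 lie right of 0, between -0.22 for Tgfb2 and 0.60 for Timp3, and most bars reach or cross the dashed line.

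The inhibitors of metalloproteinases include the gene with the smallest p of the set. Timp3 stood at 2.76, 3.17 and 2.61 on the sleep fragmented arrays and at 2.13, 2.35 and 2.26 on the control arrays. The lowest sleep fragmented array lay above the highest control array, so the groups did not overlap. On the log2 scale the difference was 0.60 ± 0.20 (SE, n = 3 per group), with an unadjusted p of 0.0163 by limma (adjusted p = 0.949), and Timp3 ranked 115 by p among the 14544 named genes. In the same-numbered arrays the difference was 0.63, 0.82 and 0.36. Over the alternatives the fold change lay between 0.39 and 0.72, and its unadjusted limma p was above 0.05 with median scaling (0.155) and when control replicate 1 (0.0592) or sleep fragmented replicate 2 (0.0628) was left out.

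The other 3 inhibitors did not show that separation. Timp2, which inhibits metalloproteinases and also takes part in the activation of Mmp2, stood at 3.42, 4.34 and 3.51 on the sleep fragmented and 3.52, 3.54 and 3.22 on the control arrays. Sleep fragmented replicate 2 alone lay clear of the controls, and the log2 fold change of 0.33 ± 0.27 (0.32 by the second probe) became 0.04 without it. Timp1, the inhibitor best known from injury and inflammation, spread as widely within groups as between them: its values were 0.94, 0.93 and -0.14 against 0.09, 0.73 and 0.94. Its log2 fold change was -0.01 ± 0.34 and turned positive on leaving out sleep fragmented replicate 3 or either of control replicates 2 and 3. Timp4, an inhibitor abundant in heart, stood at 0.04 ± 0.27 (SE).

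The stretch of 250 bases before the transcription start is given for 2 of the 4 inhibitors, Timp3, which stood highest, and Timp4, whose difference was within its spread, so that the regulatory letters of both can be set side by side. The sequences are those of RefSeq on GRCm38.p6, which holds such an entry for 25 of the 37 genes; Timp3 lies on the plus strand at chr10:86300162-86300411 and Timp4 on the minus strand at chr6:115252206-115252455, both written 5′ to 3′ along the gene. Capitals mark a match, on either strand, to a GC box (GGGCGG) in Timp3 and to the core of SMAD binding elements (CAGAC) in Timp4.
Timp3: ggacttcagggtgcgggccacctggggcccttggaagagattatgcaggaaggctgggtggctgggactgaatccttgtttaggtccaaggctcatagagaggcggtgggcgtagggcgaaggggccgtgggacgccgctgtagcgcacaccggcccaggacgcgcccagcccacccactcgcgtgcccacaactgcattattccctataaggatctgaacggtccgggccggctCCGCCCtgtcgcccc
Timp4: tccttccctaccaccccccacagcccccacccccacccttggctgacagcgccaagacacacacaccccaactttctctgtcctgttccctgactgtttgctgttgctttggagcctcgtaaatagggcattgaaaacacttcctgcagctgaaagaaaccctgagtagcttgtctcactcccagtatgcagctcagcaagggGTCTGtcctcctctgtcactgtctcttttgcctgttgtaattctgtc
The match in Timp3 begins 15 bases before the start and that in Timp4 begins 47 bases before it. GGGCGG occurs on either strand in 32.7% and CAGAC in 42.2% of 32851 promoter stretches of the same length, so both are common. Of the other inhibitors, Timp1 and Timp2 each hold 1 GC box and no CAGAC. Neither printed stretch holds an AP-1 site (TGANTCA, in 6.75% of promoters), an E-box (CACGTG, 6.02%) or a TATA box (TATAAA, 12.4%), and none of these motifs overlap in the printed stretches. A match describes the letters only.

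Of the metalloproteinases themselves, neither member of the set had groups without overlap. Mmp14, a protease anchored in the cell membrane that activates Mmp2, had a log2 fold change of 0.28 ± 0.29 with values of -0.19, -0.85 and -0.31 against -0.74, -1.22 and -0.22. In both groups replicate 2 was its lowest array. Mmp2, a gelatinase made by fibroblasts, stood at 0.19 ± 0.26, and replicate 2 was its highest array in both groups. Of 16 further matrix proteases measured, of 19 in a list of them, 12 had a positive and 4 a negative fold change, with a median of 0.28 and 0 at an unadjusted p under 0.05. Those with the smallest p were Mmp8, a neutrophil collagenase, at 0.57 ± 0.28 and Mmp12, the macrophage elastase, at 0.58 ± 0.30, the latter well above background on 2 of the 3 control arrays. Mmp11, stromelysin 3, named after its values were seen, was the 1 gene of this list whose groups did not overlap, lower at -0.29 ± 0.18. The gelatinase gene Mmp9 was not well above background on any array.

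The 3 TGF-beta ligands had fold changes of different sign. Tgfb3 stood at 0.73, 1.38 and 0.67 on the sleep fragmented and 0.55, 0.24 and 0.43 on the control arrays. The groups did not overlap, though the gap between the lowest sleep fragmented and the highest control array was small beside the height of sleep fragmented replicate 2. The log2 fold change was 0.52 ± 0.23 (unadjusted limma p of 0.0538, adjusted p = 0.949), and it was 0.29 without that array and 0.21 without the arrays numbered 2 of both groups. The probe of Tgfb3 is printed on 10 spots of each array, of which 7 to 10 were used, and the standard deviation between these spots was 0.04 to 0.06 (log2), which is error within an array and does not bear on the difference between the groups.

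Tgfb2, the ligand best known from valve and outflow development, was the gene of the set with the lowest fold change, at -0.22 ± 0.27 (SE) and -0.31 ± 0.34 by its second probe. Its values were -1.39, -0.57 and -1.21 on the sleep fragmented and -1.22, -0.78 and -0.51 on the control arrays, so the groups overlapped. Under every alternative run it stayed below 0, between -0.47 and -0.01. Tgfb1, the ligand most studied in fibrosis, stood at -2.23, -2.57 and -2.38 against -2.57, -3.06 and -2.37, a log2 fold change of 0.27 ± 0.23. The lowest value was that of control replicate 2 and the other arrays of the groups overlapped. Without control replicate 2 the log2 fold change of Tgfb1 was 0.07. It was 0.03 with quantile normalization and 0.04 in the authors' table, and over all alternatives it ran from 0.03 to 0.42. The deviation between the spots of Tgfb1 was 0.11 to 0.18. Ltbp1, which holds latent TGF-beta in the matrix, stood at 0.03 ± 0.21.

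Genes that carry the TGF-beta signal, store the growth factor or are commonly induced by it were few at the unadjusted threshold. Of 14 receptors, SMADs and regulators measured (of 16), 11 were positive with a median of 0.05 and 0 had an unadjusted p under 0.05. The endothelial co-receptor gene Eng stood highest by p, with sleep fragmented arrays (-0.06, 0.14 and -0.15) that did not overlap the controls (-0.23, -0.56 and -0.29), followed by the inhibitory SMAD gene Smad6 at 0.35 ± 0.24. In the other direction Smurf2, a ubiquitin ligase that acts on SMADs and TGF-beta receptors, was lower without overlap (-0.92, -0.88 and -0.89 against -0.80, -0.63 and -0.70); it was named after its values were seen. Of 10 genes of latency and activation (of 11), 8 were positive with a median of 0.16. Ltbp3 and Ltbp4, which bind latent TGF-beta as Ltbp1 does, both had a log2 fold change of 0.33, and 0 of the 10 had an unadjusted p under 0.05.

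Among 11 measured targets of TGF-beta (of 13), 8 were positive, the median was 0.17, and 1 had an unadjusted p under 0.05. That gene was Lox, an enzyme that crosslinks collagen and elastin, at -1.51, -1.76 and -2.02 against -2.76, -2.22 and -2.13. Its groups did not overlap, and its fold change was 0.61 ± 0.23 (SE; adjusted p = 0.949 by limma). Edn1, which encodes a vasoconstrictor peptide, stood at 0.31 ± 0.18, also without overlap. Over all 105 genes measured of the 124 in these and the other lists of related matrix genes, 0 passed the adjusted threshold. At an unadjusted limma p under 0.05, 2 were higher and 0 lower, beside 1.7% and 1.02% of the named genes. The groups did not overlap for 6 that were higher and 2 that were lower, beside 3.47% and 3.93% of the named genes. Positive were 78 (74.3%, beside 59.3%), with a median of 0.14 beside 0.06 for all named genes.

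The laminins and nidogens, the proteins of the basement membrane, varied least of the 6 roles between arrays: the standard deviation of the array medians within groups was 0.10. Nid2 was the exception: it stood at -1.29, -0.87 and -1.12 on the sleep fragmented and at -1.25, -2.03 and -1.65 on the control arrays. Control replicate 1 lay among the sleep fragmented arrays, so the groups overlapped. The log2 fold change of 0.55 ± 0.24 had an unadjusted p of 0.0471 (adjusted p = 0.949, limma), and over the alternatives it lay between 0.20 (array weights) and 0.75 (without control replicate 1). Its unadjusted p was above 0.05 with array weights, median scaling, quantile normalization, normexp, the authors' table and no filter on dim probes. The same held without the arrays numbered 2 and on leaving out replicate 2 or 3 of either group. Its log2 fold change was 0.34 with median scaling, 0.41 with quantile normalization, 0.37 with normexp and 0.24 without the arrays numbered 2. In the same-numbered arrays the difference was -0.04, 1.16 and 0.53. Nid1, the other nidogen, had fold changes of 0.20, 0.25 and 0.35 by its 3 probes, none at an unadjusted p under 0.05.

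Of the 5 laminin chains, Lamb1 was the steadiest gene of the set. Its values were 3.99, 3.89 and 3.94 on the sleep fragmented and 4.03, 3.96 and 3.76 on the control arrays, a difference of 0.02 ± 0.18 with a standard deviation within groups of 0.11. Lama4, the alpha chain of vessel walls and of the muscle cell surface, stood at 0.36, 0.74 and 0.64 against 0.38, 0.23 and 0.29, a log2 fold change of 0.28 ± 0.18. Sleep fragmented replicate 1 lay just below control replicate 1, and the other 2 sleep fragmented arrays lay above all controls. Lamb2, the beta chain enriched at the neuromuscular junction, had 0.21 ± 0.19 (0.47 with array weights), Lama2, the alpha chain lost in merosin-deficient muscular dystrophy, 0.09 ± 0.19 (0.27 by its second probe), and Lamc1, the gamma chain that most laminins share, -0.04 ± 0.21. Over the 7 genes the median was 0.20, 6 were positive and the standard deviation within groups ran from 0.11 to 0.31. Hspg2, the gene of perlecan, which joins the laminin sheet as a heparan sulfate proteoglycan, had 0.29 ± 0.22 and, by its dimmer probe, 0.48 ± 0.25.

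Of 13 further basement membrane genes measured (of 16), 7 were positive and 6 negative with a median of 0.06. The collagen XV gene Col15a1 stood at 0.76 ± 0.48, with -3.67 on control replicate 2 and between -1.78 and -1.34 on the other arrays; it was well above background on 2 of the 3 controls. Among 21 integrins and other receptors of matrix proteins (of 24), 16 were positive with a median of 0.17 and 1 had an unadjusted p under 0.05. This was Sdc4, a syndecan of focal adhesions that binds fibronectin, at -0.46, -0.41 and -0.84 against -1.39, -0.94 and -1.25. The groups did not overlap, with a log2 fold change of 0.63 ± 0.21 (adjusted p = 0.949 by limma). Itga5, the integrin chain of the fibronectin receptor, stood at 0.46 ± 0.28, with overlap.

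Fibronectin and the matricellular genes, proteins that signal to cells from the matrix, had the widest spread of the 6 roles, with a standard deviation of the array medians of 0.34. Fn1, the fibronectin gene, stood at 3.22, 4.27 and 2.92 on the sleep fragmented and 3.00, 3.58 and 2.52 on the control arrays. The log2 fold change of 0.44 ± 0.38 was smaller than the standard deviation within groups (0.63), with replicate 2 the highest array of each group, and within same-numbered arrays the difference was 0.22, 0.70 and 0.40. Sparc, a calcium-binding protein that takes part in collagen assembly, stood at 4.73, 4.57 and 4.24 against 4.53, 3.63 and 3.99. Its log2 fold change was 0.46 ± 0.26 and 0.22 ± 0.34 by its second probe, control replicate 1 lying among the sleep fragmented arrays.

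Postn, the periostin gene that activated fibroblasts express, had values of 2.51, 2.96 and 1.43 on the sleep fragmented arrays and of 1.97, 1.91 and 1.85 on the controls. The controls lay close together, while the sleep fragmented arrays lay on both sides of them, and without sleep fragmented replicate 3 the fold change was 0.82. Ccn2 (Ctgf), a growth factor induced by TGF-beta, had 3.43, 4.56 and 3.73 against 3.00, 4.50 and 3.52. Here the number of the array separated the values more than the group did, and the log2 fold change was 0.23 ± 0.41 (SE). Thbs1, a thrombospondin able to activate latent TGF-beta, was also highest on replicate 2 of both groups, with a fold change of -0.02 ± 0.36, and Thbs2 stood at 0.06 ± 0.23. With array weights Ccn2 stood at 0.68 ± 0.23 and Thbs2 at 0.50 ± 0.16. Tnc, the tenascin C gene, was well above background on 1 sleep fragmented and 0 control arrays and was not compared.

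The small proteoglycans were positive throughout in the main setting. Lum, the lumican gene, stood at 3.95, 4.39 and 3.47 on the sleep fragmented and 3.66, 3.29 and 3.59 on the control arrays. Sleep fragmented replicate 3 lay among the controls, and the fold change was 0.42 ± 0.25. Bgn, the biglycan gene, stood at -0.43, -0.37 and -1.25 against -1.47, -0.94 and -0.92, with a log2 fold change of 0.43 ± 0.28. As in Lum, sleep fragmented replicate 3 overlapped with the controls and replicates 1 and 2 lay above them; without replicate 3 the fold change of Bgn was 0.71.

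Ogn (osteoglycin, 0.27 ± 0.21), Dcn (decorin, 0.20 ± 0.19) and Vcan (versican, a large proteoglycan, 0.09 ± 0.21) had smaller values. The second kept probe of Vcan stood at -0.06, the only case of opposite sign among the 8 genes with several kept probes, and the largest gap between probes of 1 gene was 0.24. With array weights Lum (-0.00016), Ogn (-0.02) and Hspg2 (-0.12) were below 0, and with median scaling Dcn (-0.0071) and Vcan (-0.12) were. Fmod, the fibromodulin gene, was well above background on replicate 2 of each group alone and was not compared. Of 15 further small proteoglycan and matricellular genes measured (of 20), 13 were positive with a median of 0.28 and 0 had an unadjusted p under 0.05. Comp stood highest by p at 0.78 ± 0.46, with -0.35 on sleep fragmented replicate 2 and -1.97 or lower on every other array, followed by the keratocan gene Kera at 0.53 ± 0.39.

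Elastic fibre genes and Mgp, an inhibitor of calcification, had the lowest group median, a log2 fold change of 0.14 over 6 genes. Fbln1, a fibulin of elastic fibres and basement membranes, stood at 0.90, 1.47 and 0.38 against 0.19, 0.91 and 0.49, and its fold change was 0.39 ± 0.30 (0.28 by its second probe). Fbln2 had values of 3.998, 4.23 and 3.55 against 3.40, 3.96 and 3.82, a difference of 0.20 ± 0.24. In both fibulins replicate 2 was the highest array of each group and the groups overlapped. Eln, the elastin gene (0.16 ± 0.23, and 0.41 with array weights), Fbln5, which guides elastin onto microfibrils (0.13 ± 0.23), Fbn1, the fibrillin of the microfibrils (0.10 ± 0.25), and Mgp (0.10 ± 0.35) were all within 1 SE of 0. Mgp stood at 4.81, 5.50 and 4.20 against 4.26, 5.22 and 4.73. Of 12 further elastic fibre genes (of 13), 9 were positive with a median of 0.22 and 0 had an unadjusted p under 0.05; the microfibril-associated Emilin1 stood at 0.38 ± 0.26.

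**Figure D2:**
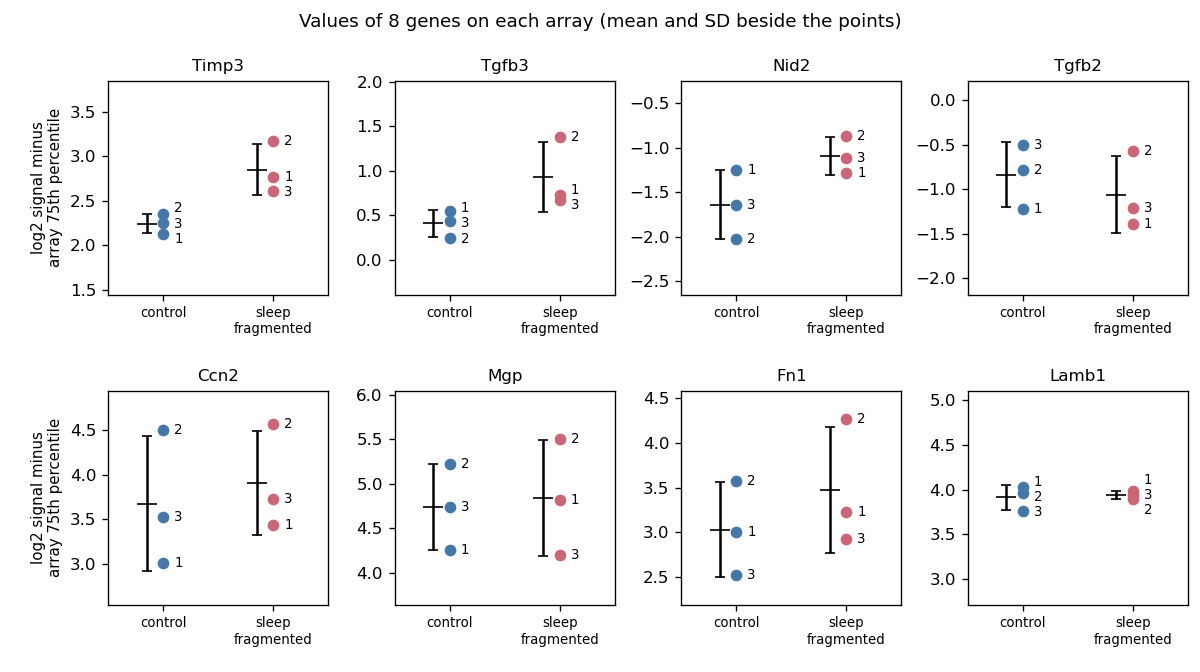
Log2 signal minus the 75th percentile of the array (y axis, span 2.4 in each panel) for 8 genes in the control and sleep fragmented groups; points are arrays with their replicate number, and the dash and bars beside them are the mean and standard deviation of 3 arrays. Timp3 and Tgfb3 show no overlap, Nid2 overlaps by control replicate 1, Ccn2, Mgp and Fn1 are highest on replicate 2 of both groups, and Lamb1 spans 3.76 to 4.03 over all 6 arrays.

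The arrays numbered 2 stood apart for part of the set. Sleep fragmented replicate 2 was the highest of the 6 arrays for 19 of the 35 genes (54.3%, beside 13.6% of all named genes). Control replicate 2 was the lowest array for 11 (31.4%, beside 38.6%). For Fn1, Thbs1, Ccn2, Fbln1, Fbln2, Mgp and Mmp2 the array numbered 2 exceeded the mean of the other 2 arrays by at least 0.3 in both groups. These are 7 genes (20%), beside 5.16% of all named genes, while 1 gene, Mmp14, was lower by as much in both (2.86%, beside 23.4%). Arrays of the same number carried the same recorded barcode in the 2 groups, and whether that means a shared slide is not known. The median difference over the 35 genes was 0.23, 0.36 and 0.08 within numbers 1, 2 and 3, beside 0.10, 0.10 and -0.01 for all named genes.

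**Figure D3:**
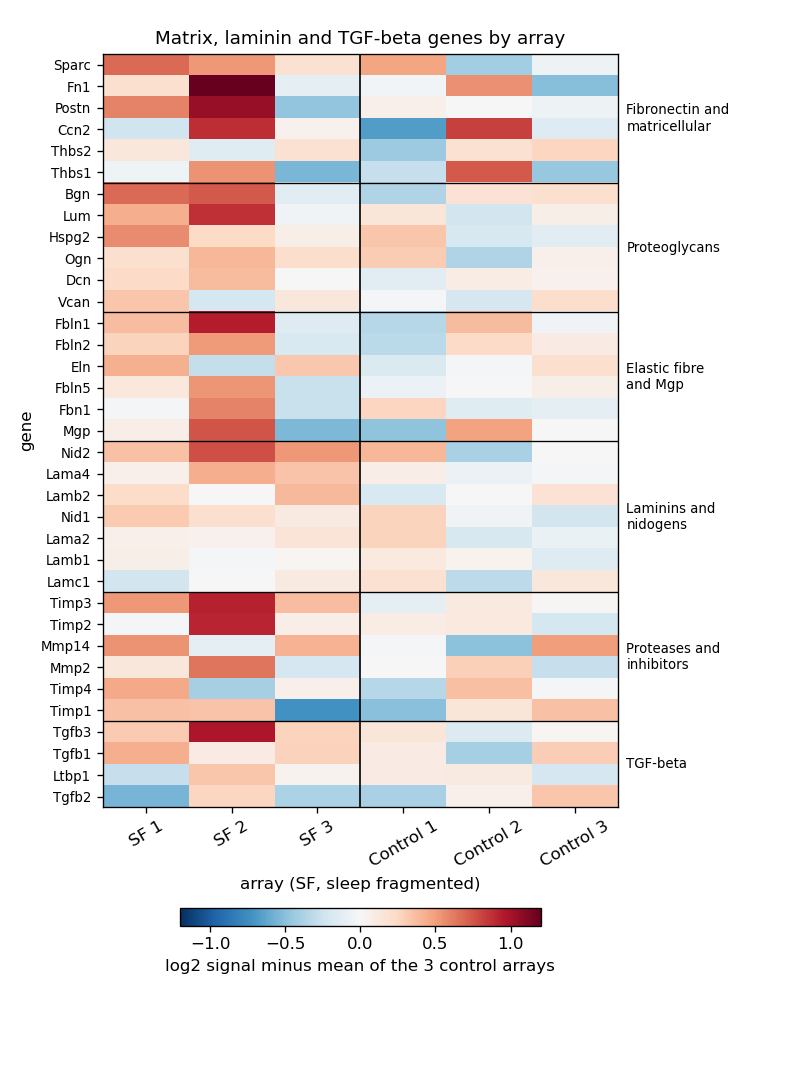
Log2 signal of the 35 measured genes (rows, grouped by role and sorted by fold change) on each of the 6 arrays (columns) minus the mean of the 3 control arrays; red is higher and blue lower, and SF is sleep fragmented. The column of sleep fragmented replicate 2 holds the highest value for 19 genes. The rows of laminins and nidogens other than Nid2 are among the palest, as are those of Dcn and Vcan.

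The same arrays carried markers of other tissue. Of 5 measured atrial markers (of 6), Myl4, the atrial myosin light chain, stood at -0.09, 7.39 and 4.37 on the sleep fragmented and -0.17, 6.92 and 3.99 on the control arrays. The adipocyte genes Cfd (-1.46, 4.23 and -0.13 against -2.23, 3.15 and 0.46) and Adipoq (-2.70, 2.81 and -1.49 against -3.02, 1.89 and -0.78) followed the same order. The atrial marker Bmp10 did not: it was highest on sleep fragmented replicate 2 (-0.41) but lowest on control replicate 2 (-3.07, beside -2.42 and -2.38 on the other controls). Summed over each list, on the linear scale relative to the 75th percentile, atrial markers ran from 32.1 to 286 in the sleep fragmented and from 15.2 to 203 in the control group, and the 3 measured adipocyte markers (of 6) from 0.781 to 27.4 and from 0.558 to 13.6. The adipocyte gene Lep was not well above background on any array. The labels name ventricles. The 8 cardiomyocyte markers, which atrial and ventricular muscle share, summed to 670 to 1125 and 672 to 827, while the atrial markers differed between arrays of both groups.

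Without the arrays numbered 2 of both groups, an alternative chosen after the data were seen, 29 of the 35 genes were positive, with a median of 0.16 beside 0.04 for all named genes. At the unadjusted p 1 gene was left, Timp3 (0.49 ± 0.23), and 6 genes did not overlap. Fewer arrays leave less room to overlap, and the share of all named genes without overlap was not computed for this alternative. The part of atrial and adipose tissue in the values of the other arrays was not tested.

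Fibroblast markers were positive together with the matrix genes. All 9 measured (of 9) had a positive fold change, with a median of 0.22 and 0 at an unadjusted p under 0.05, and their summed level ran from 84.3 to 141 in the sleep fragmented and from 77.3 to 112 in the control group. The list includes the collagen genes Col1a1, Col1a2 and Col3a1, themselves matrix genes, at log2 fold changes of 0.62, 0.58 and 0.54. The other markers ran from 0.08 (Gsn) to 0.36 (Tcf21). On sleep fragmented replicates 1, 2 and 3 the mean of the fibroblast list lay 0.39, 0.54 and 0.01 above the control mean, and that of the 35 genes 0.22, 0.43 and 0.01 above it. On control replicates 1, 2 and 3 the fibroblast list stood at 0.14, -0.11 and -0.03, and the 35 genes at -0.04, 0.04 and 0.01. The order of the control arrays was thus not the same in both. In whole ventricle more fibroblasts and more RNA per fibroblast cannot be told apart. Of the markers of activated fibroblasts 5 of 6 were measured and 4 were positive, with sums of 11.8 to 19.2 and 9.72 to 18.9; Cthrc1 was not well above background on any array.

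Macrophage markers (6 of 7 measured, 4 positive) summed to between 14.1 and 28.6 in the sleep fragmented and between 14.5 and 19.4 in the control group, highest on sleep fragmented replicate 2. Of 5 measured erythroid markers (of 6) all were positive and 4 had an unadjusted limma p under 0.05, with sums of 161 to 391 against 104 to 116, highest on sleep fragmented replicate 1. Endothelial markers (7 of 7, 3 positive) summed to 47.5 to 62.7 and 57.8 to 68.5. Smooth muscle and pericyte markers (7 of 7, 4 positive) summed to 17.6 to 20.7 and 17.3 to 22.6. Schwann cell and nerve markers (7 of 7, 6 positive) summed to 3.21 to 6.39 and 3.26 to 3.62, and 2 measured epicardial markers (of 6, both positive) to 0.612 to 1.71 and 0.475 to 0.668, both lists highest on sleep fragmented replicate 2. Lymphocyte (4 of 6 measured) and platelet markers (4 of 4) were highest on control replicate 2, where they summed to 3.2 and 20.8 against at most 1.89 and 9.35 on the other arrays. Whether any of these take part in the values of the matrix genes was not tested.

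**Figure D4:**
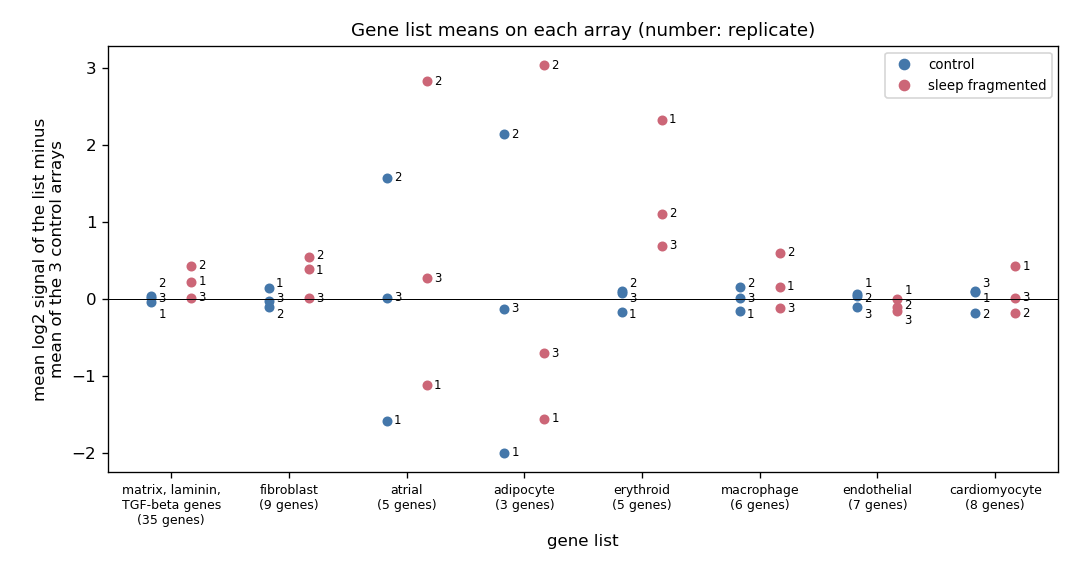
Mean log2 signal of a gene list on each array minus the mean of the 3 control arrays (y axis) for the matrix, laminin and TGF-beta genes and for 7 marker lists (x axis, number of measured genes below each); points are arrays with their replicate number. The atrial and adipocyte lists are highest on replicate 2 of both groups, at 2.82 and 3.03 in the sleep fragmented group, while the 35 genes lie between -0.04 and 0.43.

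The 3 sleep fragmented arrays share 1 recorded scan and the 3 controls share a different one, so scan and group cannot be told apart for any value above. Between 23331 and 28615 of the 39429 probes (59.2% to 72.6%) were well above background on an array. The 75th percentile of the signal was 127 on sleep fragmented replicate 1 and 211 to 261 on the other 5 arrays. At an unadjusted limma p under 0.05 there were 685 probes, of which 473 differed at least 1.5-fold, 309 of them higher; the share that was higher was 65.3% in the main setting, 24.5% with quantile normalization and 15.4% with median scaling.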

How the data were processed

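Per the file headers, the deposited scanner intensity values (background-subtracted processed signal, median spot signal and local background) come from Agilent Feature Extraction, version 11.0.1.1, on design 026655, while version 10.5.1.1 stands in the submitters' processing notes. The deposited flags (well above background, saturated, outlier) are other values, 0 or 1. A deposited table of log2 values, with a processing that the sources used here do not describe, served as an alternative. Its columns all had a median of 5.54 and correlated with the log2 signal of their own array at 0.998 or more. Its log2 fold changes nearly equalled those with quantile normalization (Timp3 0.643 and 0.642, Fn1 0.507 and 0.506). These 2 settings are therefore nearly the same alternative.

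From the processed intensity, log2 values minus the 75th percentile of each array were computed. Control spots and 180 to 240 outlier spots per array were left out (0 were saturated), and the spots of a probe were averaged. Kept were probes well above background on all 3 arrays of either group, and the brightest kept probe stood for a gene. Names came from RefSeq accessions, which matched 27228 probes (69.1%). Groups were compared with limma 3.58.1 (lmFit, eBayes, prior df 4.92; R 4.3.3) in a two-sided test, adjusted by Benjamini-Hochberg over 25219 probes and a threshold of 0.05. The fit was tested on simulated data. The number of arrays limits the precision.

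The genes and all lists were chosen with earlier results of these data known. Values on every array are given for genes at an unadjusted p under 0.05, for those whose groups do not overlap and for the 2 genes of each role with the smallest p; Timp1, Mmp14, Tgfb2, Ccn2, Postn, Mgp and Lamb1 were added after their values were seen. Of the related lists the genes with the smallest p, up to 2 a list, are named; some results are not reported here. Same-numbered arrays deviated together with r of 0.06, 0.55 and 0.21, so the numbers were not treated as pairs.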

Additional observations from a re-analysis of the deposited data

How the results depend on the processing

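No gene of the 35 passed the adjusted threshold under any alternative run; the smallest adjusted p by limma was 0.067 (Timp3 with array weights). Over all probes 111 passed with array weights (6.66 for control replicate 1, 3.15 for sleep fragmented replicate 3 and 0.33 to 0.57 for the others), 3 with normexp background correction and 5 without the arrays numbered 2. The replicate number as a block gave 4. Under the block 1980 probes and 3 of the 35 genes (Timp3, Nid2 and Fn1, the last at 0.44 ± 0.18) had an unadjusted p under 0.05. Of these probes 858 also differed at least 1.5-fold. The 473 probes at least 1.5-fold became 1346 with array weights, 1348 with no filter on dim probes, 179 with normexp, 759 without the arrays numbered 2, and 331 to 2748 with single arrays left out; the count of 2748 was without control replicate 3 and 1022 without sleep fragmented replicate 2. The 2 genes at the unadjusted p became 6 with array weights, 0 with median scaling, 1 with no filter on dim probes, 1 without the arrays numbered 2 and 0 to 5 with single arrays left out. Over all probes the count at the unadjusted p was 685 in the main setting and 6481 with array weights. The 2 genes without overlap became 0 with median scaling, 6 without the arrays numbered 2 and 2 to 9 with single arrays left out. Where arrays were left out, fewer arrays leave less room to overlap. The median of the 35 genes was 0.20 in the main setting, -0.0034 with median scaling, and 0.11 to 0.31 with single arrays left out.

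Of the 560 single-gene values under the 16 alternatives, 497 kept their sign and 63 did not. The sign was kept throughout by 11 genes: Fn1, Bgn, Fbln1, Lama4, Nid2, Mmp14, Timp2, Timp3 and the 3 TGF-beta ligands. Quantile normalization and the authors' table, both among the 16, gave nearly the same values. With array weights the log2 fold change had the other sign for Sparc (-0.11), Postn (-0.22), Lum (-0.00016), Ogn (-0.024), Hspg2 (-0.12), Fbn1 (-0.35), Fbln5 (-0.067), Lama2 (-0.10), Lamb1 (-0.068), Nid1 (-0.075), Mmp2 (-0.052) and Ltbp1 (-0.040). With median scaling it did for Thbs2 (-0.15), Dcn (-0.0071), Vcan (-0.12), Fbn1 (-0.11), Eln (-0.052), Fbln2 (-0.0087), Fbln5 (-0.078), Mgp (-0.11), Lama2 (-0.12), Lamb1 (-0.18), Lamb2 (-0.0023), Nid1 (-0.0034), Mmp2 (-0.018), Timp4 (-0.17) and Ltbp1 (-0.18). Thbs2 was at -0.13 with quantile normalization and -0.12 in the authors' table, and Timp1 at 0.0051 and 0.0052. Normexp put Lamb1 at -0.066 and Ltbp1 at -0.00058. Without the arrays numbered 2 Thbs1 was at 0.068, Fbn1 at -0.22, Fbln5 at -0.073 and Ltbp1 at -0.064. With single arrays left out, values of both signs were found for Thbs1 (-0.30 to 0.35), Thbs2 (-0.16 to 0.19), Ccn2 (-0.10 to 0.64), Vcan (-0.037 to 0.23), Fbn1 (-0.14 to 0.28), Fbln5 (-0.071 to 0.33), Mgp (-0.23 to 0.42), Lama2 (-0.0089 to 0.22), Lamb1 (-0.054 to 0.082), Lamc1 (-0.19 to 0.055), Mmp2 (-0.036 to 0.39), Timp1 (-0.26 to 0.35), Timp4 (-0.17 to 0.26) and Ltbp1 (-0.12 to 0.19). The cause was not tested.

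The recorded barcode follows the replicate number, so a block on it is the replicate block given here. A block on scan could not be fitted, since each scan holds 1 group. Signal over background limits Tnc and Fmod (3 probes), and 1 probe each of Fbln5 and Vcan, to no comparison.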
